A study of Drosophila melanogaster with 12 samples.

Results

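The levels of 10 genes that drive the cell cycle in Drosophila were followed in whole testes: the cyclins CycE, CycD and CycB3, the cyclin-dependent kinases Cdk1, Cdk2 and Cdk4, the phosphatase stg, the kinase polo, and fzy and cort, which switch on the anaphase-promoting complex. A probe set was taken for one of these genes when the annotation of the array gave it that gene as its only symbol. By that rule 7 of the 10 genes had a probe set, 9 of the 18769 probe sets tested, with 3 for fzy and 1 each for CycE, CycD, CycB3, Cdk2, Cdk4 and cort. Cdk1, stg and polo had none under their own symbol and were not analysed here.

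RNA from testes of 1-day-old adults was hybridised to Affymetrix arrays, 3 for each of 4 genotypes, 12 in all. In Med22RNAi males, bam-gal4 drove a hairpin against Med22, a subunit of the Mediator coactivator, together with UAS-Dicer2 in late spermatogonia and spermatocytes, so that stem cells, early spermatogonia and somatic cells kept the gene. The aly2/aly5P males were mutant for aly, a core subunit of the testis complex tMAC, and the sa1/sa2 males were mutant for sa, a testis-specific TBP-associated factor. Wild type was labelled y,w, while the methods of the study name a red,e strain. The Med22RNAi arrays were made for the study, and its methods name the red,e, aly and sa data as published. Whether the 3 y,w arrays belong to that published set is not settled. The knockdown and the array set cannot be told apart, and there was no array with the driver alone. The Med22RNAi arrays were biological replicates per the study's methods. For the other genotypes the sources used here do not say that arrays came from separate flies, so their spread may be technical.

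In the testis, germline stem cells and spermatogonia divide by mitosis, and their descendants then replicate DNA once more and grow for days as spermatocytes in an extended G2 before the meiotic divisions. D- and E-type cyclins with Cdk4 and Cdk2 act at the G1 to S transition, A- and B-type cyclins with Cdk1, activated by Cdc25 phosphatases such as stg, bring cells into division, and fzy, the Cdc20 of flies, directs the destruction of mitotic cyclins. Testes of meiotic arrest mutants fill with spermatocytes that stop before the meiotic divisions, which is why levels of the mitotic drivers were asked for as a readout of the dividing germ cells against the arrested ones.

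Levels are log2 signals. The lowest value on any array was 2.11, and 45.8% to 49.6% of probe sets lay under 3 on each array, so a level under 3 is near the floor of the measurement. Arrays of a genotype correlated at 0.983 to 0.997. The sa transcript averaged 5.85 ± 0.26 in sa testes and 10.84 ± 0.18 in wild type (SD, n = 3 each). The aly transcript was not lower in aly testes, at 7.455 ± 0.297 against 6.557 ± 0.228 in wild type. Med22 has no probe set under its own symbol. Among probe sets above 4 on at least 3 arrays, the median log2 fold change against wild type was 0.59 for the knockdown, 0.77 for aly and 0.65 for sa, against 0.00 over all probe sets in each of these comparisons. A rise of that size is therefore common among expressed genes. Each change below was computed a second time after centring the arrays on the 7231 probe sets that were above 4 on every array, a choice made after seeing the data, and this moved the log2 fold changes against wild type by -0.72 in the knockdown, -1.05 in aly testes and -0.88 in sa testes. Testes are mixtures of cells, and fewer cells of a type and less RNA per cell cannot be told apart in them.

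**Figure D1:**
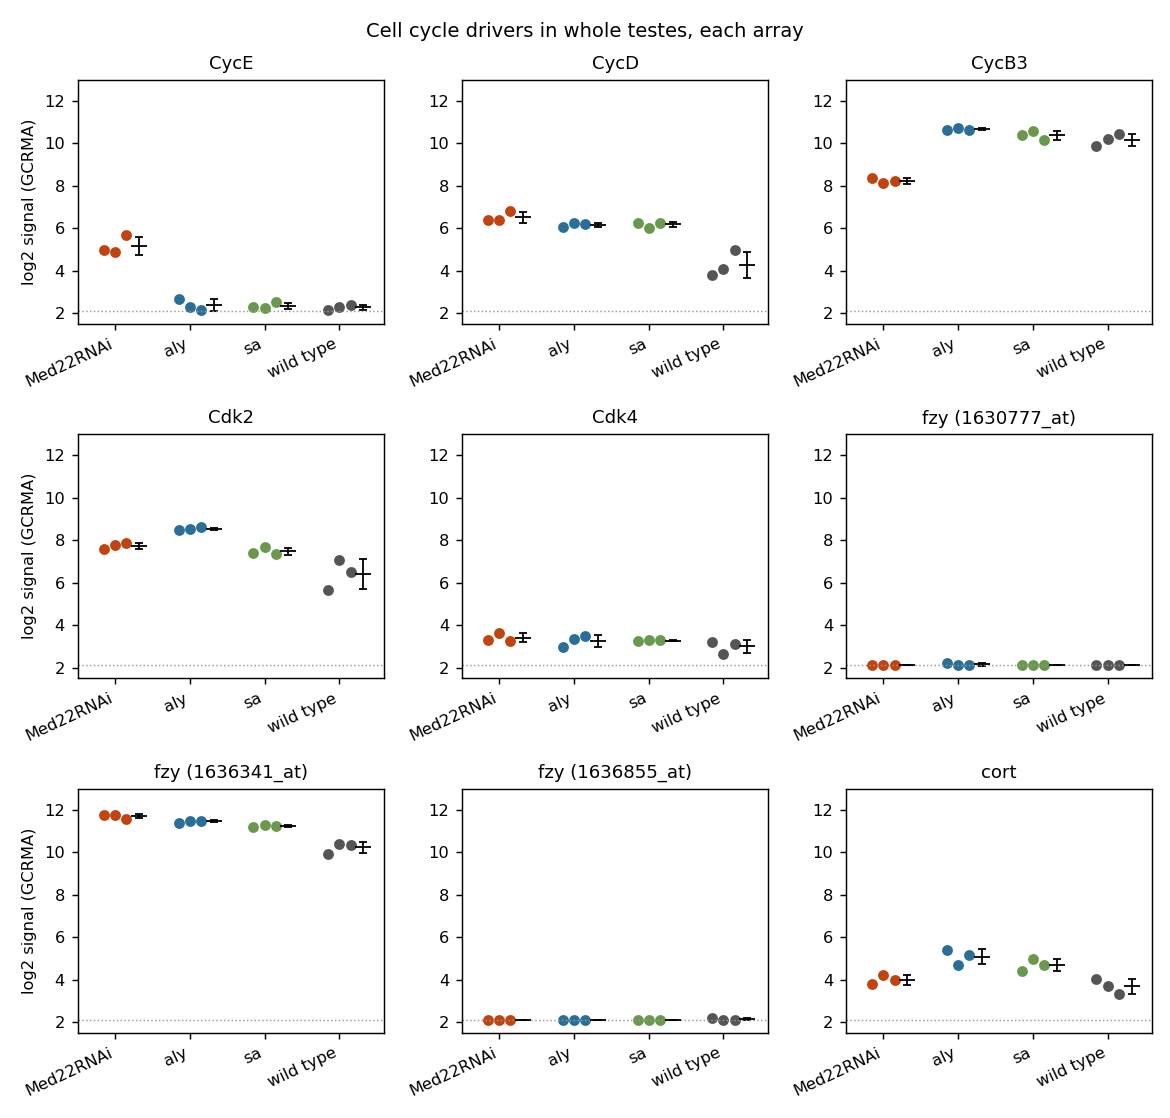
Level of each of the 9 probe sets of cell cycle drivers on every array, as log2 signal, with genotypes along the horizontal axis. Points are arrays, the bar beside them is the mean with its SD (n = 3), and the dotted line is the lowest value, 2.11. CycE stands off the floor only in Med22RNAi, CycB3 is lowest in Med22RNAi, and CycD is lowest in wild type.

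Among the drivers of S phase, CycE was off the floor only when Med22 was knocked down. CycE, the cyclin that activates Cdk2 at the start of S phase, gave 4.95, 4.87 and 5.66 on the Med22RNAi arrays. It gave 2.67, 2.31 and 2.13 on the aly arrays and 2.30, 2.22 and 2.50 on the sa arrays, against 2.16, 2.28 and 2.37 in wild type. All 3 Med22RNAi arrays lay above the other 9, which were all near the floor. With the dim groups set at 3, CycE was at least 4.48-fold higher in Med22RNAi testes than in aly, sa or wild-type testes. The bound depends on the level taken for the dim groups, and with all values under 4 raised to 4 the log2 difference was 1.16 in each of these comparisons, which passed the adjusted p but not the 4-fold limit. The fitted log2 difference of Med22RNAi from wild type was 2.89 ± 0.22 (SE), and limma's adjusted p was 5.52e-06 against wild type, 7.51e-06 against aly and 1.67e-05 against sa. Between aly or sa and wild type both groups were near the floor and no fold is given.

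Some markers of somatic cells were also higher on the Med22RNAi arrays, and others were not. Of 8 measured genes that mark hub and cyst cells, the somatic cells that surround the germline, 3 were called higher in Med22RNAi and none lower, where 11.3% of all probe sets, and 20.8% of those above 4 on at least 3 arrays, were called higher. They were zfh1, at 6.42 ± 0.24 in Med22RNAi and 2.44 ± 0.33 in wild type, chinmo, and piwi, which the germline also expresses. The gene piwi was called higher in aly and sa as well. CadN of the same list lay lower, at 5.38, 5.47 and 5.07 in Med22RNAi against 6.42, 7.59 and 6.84 in wild type. The hub marker upd1 and the cyst cell marker tj were under 3 on all 12 arrays. The summed level of the list, as log2 of summed signals, lay between 12.01 and 12.43 in Med22RNAi, against 9.48 to 10.05 in aly testes, 9.96 to 10.80 in sa testes and 9.89 to 10.54 in wild-type testes. Against the same 11.3% and 20.8%, muscle genes were called higher for 4 of 8 and hemocyte genes for 4 of 8 in Med22RNAi, with the hemocyte sum at 12.58 to 12.96, against 10.02 to 10.29 in wild type, and the muscle sum at 13.58 to 14.17, against 13.62 to 13.96 in wild type, although the hemocyte receptor eater was under 3 on all arrays. The hemocyte sum was 10.20 to 11.30 in aly testes and 11.14 to 11.48 in sa testes. The muscle sum was 10.82 to 11.71 in aly testes and 11.85 to 12.73 in sa testes. Of the 8 muscle genes, 7 were called higher in Med22RNAi than in aly and 5 higher than in sa, and none lower. The share called higher than in aly was 10.2% of all probe sets and 18.7% of those above 4 on at least 3 arrays. Against sa these shares were 4.57% and 8.33%. Of 7 measured fat body genes, 2 were called lower and none higher in Med22RNAi. The share called lower was 9.02% of all probe sets and 16.2% of those above 4 on at least 3 arrays. Of 9 measured accessory gland genes none was called in Med22RNAi. The part of somatic cells in the CycE result was not tested.

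CycD rose in all 3 arrest genotypes. CycD, the partner of Cdk4 that couples growth to progression through G1, gave 6.37, 6.39 and 6.82 in Med22RNAi, 6.06, 6.23 and 6.21 in aly and 6.26, 6.03 and 6.24 in sa, against 3.80, 4.07 and 4.96 in wild type. The 9 arrest arrays all lay above the 3 wild-type arrays. The log2 fold change was 2.25 in Med22RNAi (adjusted p = 0.000103 by limma), 1.89 in aly (adjusted p = 0.000271) and 1.90 in sa (adjusted p = 0.000322), each with an SE of 0.27. Wild-type replicate 3 was the highest of its group, and without it the changes in aly and sa were 2.23 and 2.25. Centred on expressed probe sets CycD still passed the test in all 3 genotypes, with changes of 1.52, 0.85 and 1.03. Between Med22RNAi and aly the difference was 0.36, with a 95% confidence interval of -0.26 to 0.97, and between Med22RNAi and sa it was 0.34, with an interval of -0.27 to 0.96. Neither passed the test, although the Med22RNAi arrays lay above those of both mutants. The difference from aly had no settled direction, as it was 0.68 (adjusted p = 0.0241 by limma) centred on expressed probe sets and -0.75 (adjusted p = 0.0103) centred on the array median.

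Cdk2, the kinase that CycE activates, was highest in aly testes. Its levels were 7.57, 7.79 and 7.85 in Med22RNAi, 8.50, 8.54 and 8.61 in aly and 7.41, 7.67 and 7.34 in sa, against 5.66, 7.05 and 6.49 in wild type. No arrest array overlapped wild type, and the aly arrays lay above those of the other arrest genotypes, which overlapped each other. Against wild type Cdk2 rose by 2.15 ± 0.29 on the log2 scale in aly, or 4.43-fold (adjusted p = 0.000201 by limma), by 1.34 in Med22RNAi (adjusted p = 0.00432) and by 1.08 in sa (adjusted p = 0.0152). Aly testes exceeded sa testes by 1.07 (adjusted p = 0.0217), and Med22RNAi differed from aly by -0.81 (adjusted p = 0.0557 by limma). This last difference just missed the threshold of 0.05 and passed it in 7 of 20 alternatives, among them the fit of only these genotypes (adjusted p = 0.00183), a further quantile normalisation (adjusted p = 0.0085), the filter on low values (adjusted p = 0.0206) and leaving out wild-type replicate 1 (adjusted p = 0.00311) or 2 (adjusted p = 0.0127). Wild-type replicate 1, at 5.66, weighed on the 4-fold call, since without it no cell cycle driver was called 4-fold higher in aly. In fits of only the compared genotypes the adjusted p was 0.0562 for Med22RNAi and 0.12 for sa. In sa the adjusted p also exceeded 0.05 after a further quantile normalisation (adjusted p = 0.0938) and without sa replicate 2 (adjusted p = 0.0526). Centred on expressed probe sets, the change in sa was 0.20 (adjusted p = 0.459).

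Cdk4, the kinase partner of CycD, stayed close to the floor in every genotype. It gave 3.32, 3.65 and 3.24 in Med22RNAi, 2.95, 3.35 and 3.48 in aly and 3.24, 3.28 and 3.28 in sa, against 3.20, 2.66 and 3.13 in wild type. The differences from wild type were 0.41, 0.27 and 0.27, with adjusted p of 0.112, 0.307 and 0.328 by limma. The result in aly changed with the scaling, to 1.02 (adjusted p = 0.00204) after a further quantile normalisation, 0.91 (adjusted p = 0.000884) centred on the array median and -0.78 (adjusted p = 0.00329) centred on expressed probe sets, which gave -0.60 in sa (adjusted p = 0.0142). No direction in the mutants can therefore be given for this probe set.

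On the deposited scale CycB3 was the only measured driver that fell against wild type, and it fell only in Med22RNAi. CycB3, a B-type cyclin that acts in mitosis and in female meiosis, gave 8.38, 8.11 and 8.22 in Med22RNAi, 10.64, 10.72 and 10.64 in aly and 10.40, 10.60 and 10.16 in sa, against 9.87, 10.19 and 10.42 in wild type. All Med22RNAi arrays lay below the other 9, while sa and wild type overlapped. CycB3 was 3.79-fold lower in Med22RNAi than in wild type (log2 fold change -1.92 ± 0.15, adjusted p = 7.43e-06 by limma), 5.39-fold lower than in aly (adjusted p = 1.83e-06) and 4.44-fold lower than in sa (adjusted p = 1.02e-05). The first of these was just under the 4-fold limit and passed it at -2.22 after a further quantile normalisation and at -2.65 after centring on expressed probe sets.

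In aly, CycB3 was 0.51 higher than in wild type (adjusted p = 0.0217 by limma), and in sa the difference was 0.23 (adjusted p = 0.325). The direction in both mutants depended on the scaling, since centring on expressed probe sets gave -0.54 in aly and -0.65 in sa. The adjusted p in aly also exceeded 0.05 in a fit of only the compared genotypes, at 0.0608, and after a further quantile normalisation, at 0.138. It did so too without aly replicate 1 (adjusted p = 0.0501), without aly replicate 2 (adjusted p = 0.0662) or without wild-type replicate 1 (adjusted p = 0.0659). The level of CycB3 in the mutants thus had no direction against wild type that held under every scaling. The deficit in Med22RNAi kept its sign and an adjusted p under 0.05 in all 20 alternatives, between -2.65 and -1.79.

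Of the activators of the anaphase-promoting complex, fzy rose in every arrest genotype. Its bright probe set gave 11.74, 11.76 and 11.59 in Med22RNAi, 11.40, 11.48 and 11.50 in aly and 11.19, 11.28 and 11.26 in sa, against 9.93, 10.39 and 10.36 in wild type. The 4 genotypes did not overlap. The log2 fold change was 1.47 in Med22RNAi (adjusted p = 6.36e-06 by limma), 1.23 in aly (adjusted p = 1.27e-05) and 1.02 in sa (adjusted p = 6.55e-05), each with an SE of 0.11. In aly and sa these rises were near the general shift of expressed probe sets, while in Med22RNAi the rise was larger than that shift. Centred on expressed probe sets, fzy still passed the adjusted p in Med22RNAi at 0.75 (adjusted p = 1.2e-05). It was at 0.19 in aly (adjusted p = 0.0584) and 0.14 in sa (adjusted p = 0.145). Med22RNAi exceeded sa by 0.45 (adjusted p = 0.013 by limma), but centred on the array median by 0.23 (adjusted p = 0.0724). The other 2 probe sets of fzy lay at or near the floor on every array, so the sets annotated to this gene disagree on whether it is expressed.

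The gene cort, a Cdc20-family activator known from female meiosis, was dim and rose in the mutants. It gave 3.77, 4.22 and 3.97 in Med22RNAi, 5.37, 4.70 and 5.16 in aly and 4.39, 4.95 and 4.70 in sa, against 4.02, 3.71 and 3.33 in wild type. The aly and sa arrays lay above those of Med22RNAi and of wild type, which overlapped. Against wild type the log2 fold change was 1.39 in aly (adjusted p = 0.000928 by limma), 1.00 in sa (adjusted p = 0.00782) and 0.31 in Med22RNAi (adjusted p = 0.39), and Med22RNAi was 1.09 below aly (log2 fold change -1.09, adjusted p = 0.0051). Centred on expressed probe sets the changes in aly and sa were 0.35 (adjusted p = 0.21) and 0.12 (adjusted p = 0.669), and after a further quantile normalisation the adjusted p in sa was 0.0853.

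**Figure D2:**
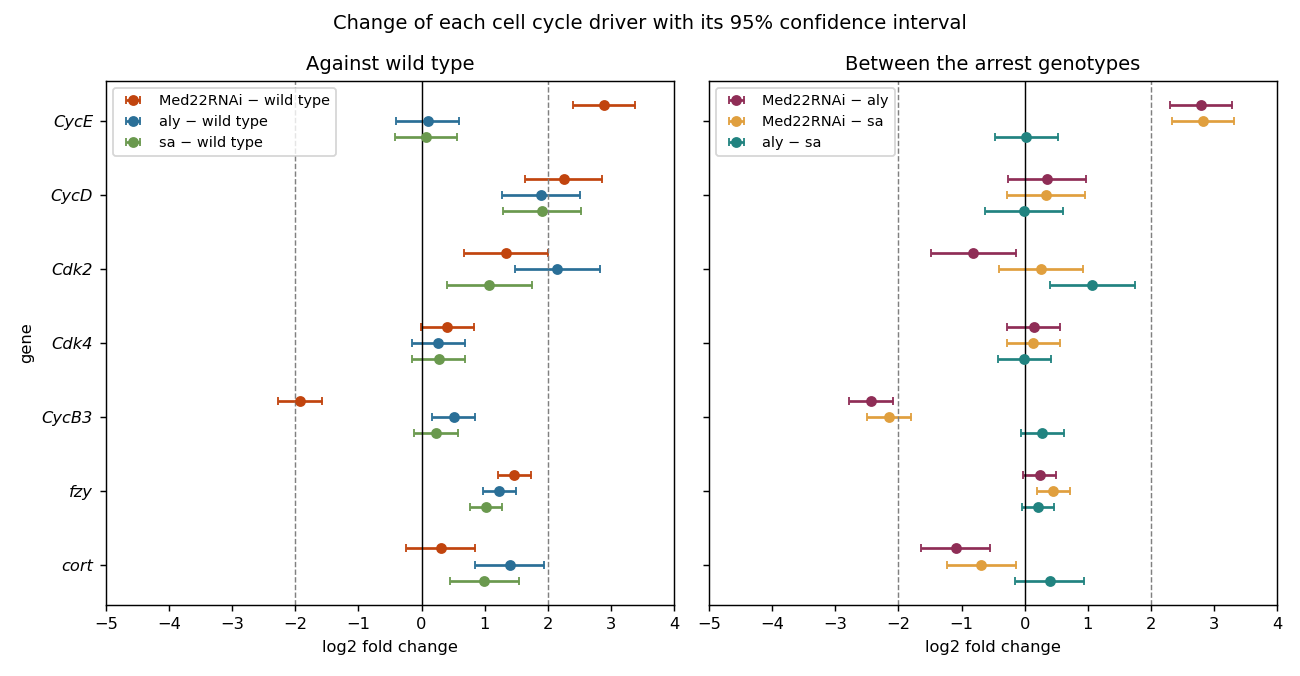
Log2 fold change of each driver, with its 95% confidence interval from limma, in the comparisons with wild type (left) and between the arrest genotypes (right). Dashed lines mark 4-fold, and for fzy the bright probe set is shown. CycE at 2.89 and CycB3 at -1.92 in Med22RNAi stand apart from the values of aly and sa, while CycD lies near 2 in all 3 genotypes. Levels of CycE in aly, sa and wild type were near the floor.

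Counted together, 2 of the 9 probe sets (CycE and CycD) were called at least 4-fold higher in Med22RNAi at an adjusted p under 0.05 and none lower, where 11.3% of all probe sets were called higher and 9.02% lower. In aly 1 of 9 was called higher (Cdk2) and none lower, beside 14.3% and 10.3% of all probe sets, and in sa none was called in either direction, beside 9.52% and 7.69%. On the adjusted p alone, 4 rose and 1 fell in Med22RNAi, 5 rose and none fell in aly, and 4 rose and none fell in sa. The background on that rule was 28.3% higher and 17.0% lower in Med22RNAi, 30.1% and 15.2% in aly, and 28.0% and 14.3% in sa, or 49.2%, 52.4% and 49.8% higher among the 10181 expressed probe sets. With 9 probe sets, these shares are close to what the arrays show in general, and the 2 probe sets of fzy at the floor are counted among those not called.

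Set directly against each other, Med22RNAi and aly differed 4-fold in 2 of the 9 probe sets, CycE higher and CycB3 lower in Med22RNAi, where 10.2% of all probe sets were called higher and 6.52% lower. Med22RNAi and sa also differed 4-fold in 2, CycE higher and CycB3 lower in Med22RNAi, beside 4.57% of all probe sets higher and 4.27% lower. These comparisons share the Med22RNAi arrays. On the adjusted p alone, 1 was higher and 2 were lower in Med22RNAi than in aly, beside 20.1% and 21.0% of all probe sets, and 2 were higher and 1 lower than in sa, beside 16.7% and 16.6%. Between aly and sa none of the 9 was called at 4-fold, beside 2.96% and 7.32%, and only Cdk2, higher in aly, passed the adjusted p, 1 of 9 probe sets where 16.8% of all were higher and 14.5% lower. For Cdk2 the adjusted p exceeded 0.05 without any 1 of the aly replicates and without sa replicate 1 or 3, running from 0.0524 to 0.0727.

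The genes whose levels followed Cdk2 most closely over the 12 arrays were OdsH (Pearson r = 0.988), Targ3 (r = 0.987) and D19A (r = 0.986). OdsH is a homeobox gene, and its mean level was 9.29 in Med22RNAi, 11.44 in aly, 8.76 in sa and 5.25 in wild type. For CycB3, which was added after its values were seen, they were CG13667 (r = 0.996), l(2)37Bb (r = 0.994) and Ing3 (r = 0.992). Ing3 averaged 7.47 in Med22RNAi, 10.72 in aly, 10.29 in sa and 10.15 in wild type. These correlations are descriptions over 12 arrays in 4 genotypes that share their arrays and normalisation.

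Spermatogonial genes gave a further view of the mitotic germ cells. Of 6 measured genes of that list, bam, the switch from spermatogonial division to the spermatocyte programme, and piwi were called higher in all 3 arrest genotypes and none was called 4-fold lower, where 11.3% of all probe sets were called higher in Med22RNAi, 14.3% in aly and 9.52% in sa. The gene bam averaged 9.21 ± 0.08 in Med22RNAi, 9.81 ± 0.09 in aly and 8.51 ± 0.07 in sa, against 4.77 ± 0.86 in wild type, so all 9 arrest arrays lay far above wild type. The germline helicase vas and ovo were under 3 on all 12 arrays, and bgcn, the partner of bam, differed from wild type by -0.74, 0.87 and -0.13 in Med22RNAi, aly and sa. The summed level of this list lay between 11.48 and 11.61 in Med22RNAi testes, between 12.32 and 12.35 in aly testes and between 11.64 and 11.85 in sa testes, against 10.94 to 11.21 in wild type. For 10 spermatocyte genes the sum was highest in aly testes, at 15.93 to 16.09. Med22RNAi testes gave 14.34 to 14.37, sa testes 14.47 to 14.58 and wild type 13.97 to 14.11. This list holds aly and sa themselves. Of 10 spermatid and sperm tail genes, 7 were called lower in aly, 4 in sa and 2 in Med22RNAi, and none higher. Of expressed probe sets 18.6%, 13.8% and 16.2% were called lower. The arrest genotypes were thus not alike in these markers. The part of these cell types in the changes of the drivers was not tested.

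The drivers work with cyclins, kinases, inhibitors and substrates that were gathered in 7 further lists, of which 88 genes were measured. Against wild type, 20 of the 88 were called higher and 4 lower in Med22RNAi, 39 higher and 4 lower in aly, and 33 higher and 3 lower in sa. Of all probe sets 11.3%, 14.3% and 9.52% were called higher and 9.02%, 10.3% and 7.69% lower in Med22RNAi, aly and sa, and of those above 4 on at least 3 arrays 20.8%, 26.3% and 17.4% were called higher and 16.2%, 18.6% and 13.8% lower. The count of 20 higher in Med22RNAi is close to the share among these expressed probe sets. The median log2 fold change was 1.02, 1.87 and 1.67. Centred on expressed probe sets, 10 were higher and 11 lower in Med22RNAi, 19 higher and 8 lower in aly, and 12 higher and 3 lower in sa. Med22RNAi was lower than aly for 19 genes and higher for 8, and lower than sa for 16 and higher for 2. Of all probe sets 6.52% were lower and 10.2% higher than in aly, and 4.27% lower and 4.57% higher than in sa. Of those above 4 on at least 3 arrays, 11.8% were lower and 18.7% higher than in aly. Against sa these shares were 7.75% lower and 8.33% higher. Centred on the array median, 45 were lower and 4 higher than in aly.

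**Figure D3:**
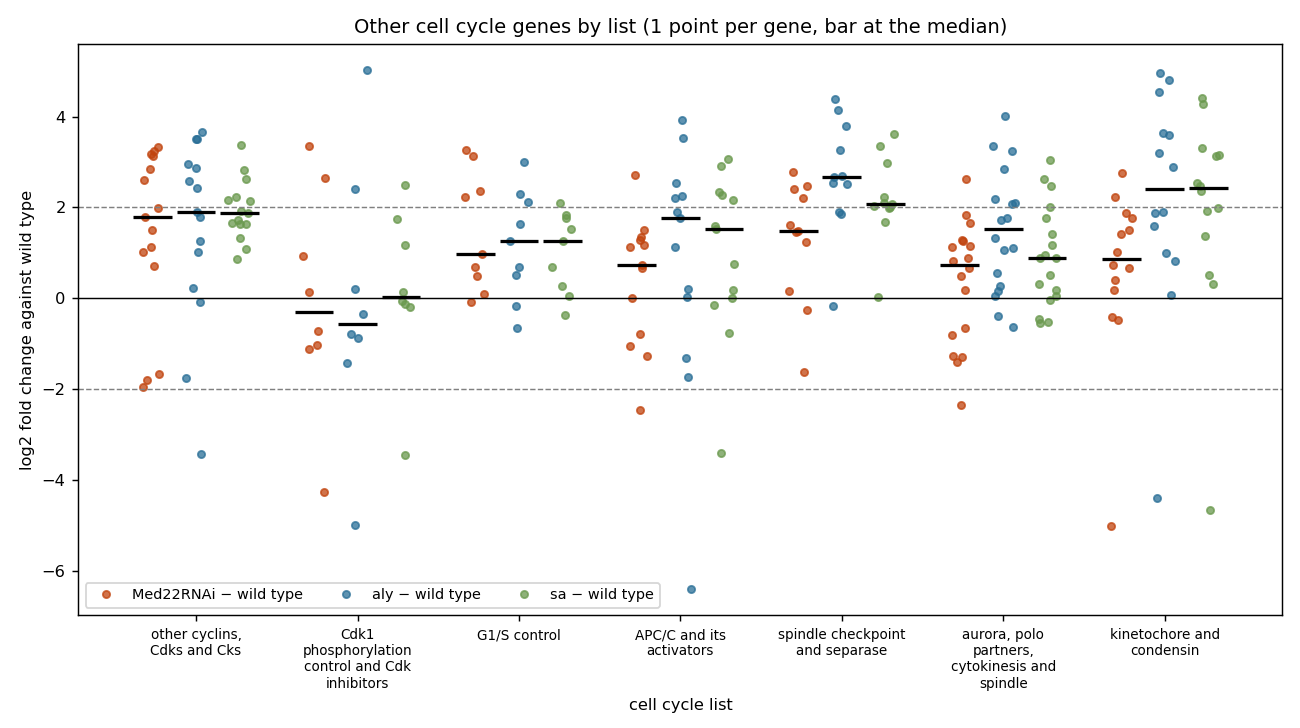
Log2 fold change against wild type of 88 other cell cycle genes in 7 lists, 1 point per gene, with black bars at the medians and dashed lines at 4-fold. In the spindle checkpoint list the medians are 1.48 in Med22RNAi, 2.68 in aly and 2.07 in sa, and in the kinetochore list they are 0.87, 2.40 and 2.42.

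Among 15 other cyclins, Cdks and Cks genes, 6 were called higher in Med22RNAi, 7 higher and 1 lower in aly and 6 higher in sa, beside 20.8%, 26.3% and 17.4% of expressed probe sets called higher and 18.6% lower in aly. In Med22RNAi the largest rises were of CycH, a subunit of the Cdk-activating kinase (3.33 ± 0.12), and Cdk5 (3.23 ± 0.31). In the mutants Cdk8, the kinase of the Mediator complex, rose by 3.65 ± 0.34 in aly and 3.38 ± 0.34 in sa and by 1.13 in Med22RNAi. In aly the gene called lower was CycB, the main mitotic cyclin partner of Cdk1, which gave 9.67, 9.62 and 9.73 in Med22RNAi, 4.95, 4.09 and 3.76 in aly and 9.65, 9.61 and 9.60 in sa, against 7.45, 7.96 and 7.67 in wild type. It fell by 3.43 on the log2 scale in aly (adjusted p = 4.15e-06 by limma) and rose by 1.98 in Med22RNAi and 1.92 in sa. The B-type cyclins CycB and CycB3 were thus lowest in different genotypes. By in situ hybridisation the study scored cycB as off in Med22RNAi and aly spermatocytes. It scored the transcript as on in mutants of the testis-specific TBP-associated factors. The rise in whole Med22RNAi testes runs against that score, and the reason was not tested.

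Of 8 measured genes that control Cdk1 by phosphorylation or inhibit Cdks, 2 rose 4-fold in Med22RNAi, 2 in aly and 1 in sa, beside 20.8%, 26.3% and 17.4% of expressed probe sets, so that this list was near or below the background. Cdc14, whose yeast relative is a phosphatase that reverses Cdk phosphorylation, fell in all 3. It was the 1 gene of the 8 called lower in each, beside 16.2%, 18.6% and 13.8% of expressed probe sets called lower. Cdc14 gave 7.98, 7.94 and 7.47 in Med22RNAi, 7.03, 7.11 and 7.10 in aly and 8.26, 8.54 and 9.01 in sa, against 11.96, 12.10 and 12.14 in wild type. The kinase gwl, which restrains the phosphatase PP2A at entry into division, rose by 2.41 in aly and 2.49 in sa but fell by 1.03 in Med22RNAi (adjusted p = 0.00228 by limma). The Chk2 kinase lok rose most in aly, by 5.03 ± 0.22, against 2.66 in Med22RNAi and 1.75 in sa. The PP2A subunit tws rose by 3.36 ± 0.57 in Med22RNAi (adjusted p = 0.000983 by limma), where it was higher than in aly (adjusted p = 0.000644). The sa arrays were spread widely, at 8.47, 6.51 and 8.69, and the difference of Med22RNAi from sa (adjusted p = 0.0169) was lost in a fit of only these genotypes (adjusted p = 0.0847) and without Med22RNAi replicate 2 or 3. Levels of twe, the Cdc25 of male meiosis, were 1.12 lower in Med22RNAi (log2 fold change -1.12, adjusted p = 0.00206 by limma) and 1.43 lower in aly (-1.43, adjusted p = 0.000393), and differed by -0.19 in sa.

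Of 9 measured G1/S genes, among them the partners of E2F and the SCF ubiquitin ligase, 4 rose 4-fold in Med22RNAi, 3 in aly and 1 in sa, beside 20.8%, 26.3% and 17.4% of expressed probe sets, and none fell 4-fold. The SCF substrate adaptor slmb rose in Med22RNAi by 3.26 ± 0.47 and differed from wild type by -0.17 in aly and 0.04 in sa. Med22RNAi exceeded both mutants in slmb, by 3.43 over aly (adjusted p = 0.000292 by limma) and by 3.22 over sa (adjusted p = 0.000699). The SCF subunit Roc1a rose in all 3 genotypes, by 3.13, 2.12 and 2.10, and the E2F partner Dp by 2.23, 2.30 and 1.83.

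Of 13 measured genes of the anaphase-promoting complex, 1 was called higher and 1 lower in Med22RNAi, 5 and 1 in aly, and 5 and 1 in sa. The share of all probe sets called higher was 11.3%, 14.3% and 9.52%, and lower 9.02%, 10.3% and 7.69%. Of expressed probe sets 20.8%, 26.3% and 17.4% were called higher and 16.2%, 18.6% and 13.8% lower. In Med22RNAi the list was thus at or below the background. The gene that fell was fzr2, a relative of the activator fzr, at 9.62, 9.27 and 9.33 in Med22RNAi, 5.50, 5.49 and 5.36 in aly and 8.14, 8.93 and 8.28 in sa, against 11.51, 11.94 and 12.14 in wild type. Its arrays did not overlap between any of the 4 genotypes and were lowest in aly. The subunit APC4 rose by 3.93 in aly and 3.06 in sa, and by 1.49 in Med22RNAi.

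Of 11 measured genes of the spindle checkpoint and separase, 4 were called higher in Med22RNAi, 8 in aly and 8 in sa, beside 20.8%, 26.3% and 17.4% of expressed probe sets, and none lower. Bub3 rose in all, by 2.20, 4.15 and 3.36, and Mad1 by 2.77, 4.38 and 2.07. The gene thr, a partner of separase in sister chromatid separation, gave 5.49, 5.92 and 6.31 in Med22RNAi, 10.09, 10.17 and 9.93 in aly and 11.18, 11.03 and 11.23 in sa, against 7.31, 7.75 and 7.54 in wild type. It was higher than wild type in both mutants and lower in Med22RNAi, where it fell by 1.63 on the log2 scale (adjusted p = 0.000102 by limma), and the direct difference of Med22RNAi was -4.16 from aly and -5.24 from sa. Separase itself, Sse, rose by 2.48 in Med22RNAi, by 3.27 in aly and by 2.01 in sa.

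The spindle and cytokinesis list had 1 of 18 genes higher and 1 lower in Med22RNAi, 7 higher in aly and 4 higher in sa. In Med22RNAi this was below the 11.3% higher and 9.02% lower of all probe sets, and for aly and sa the shares of expressed probe sets called higher were 26.3% and 17.4%. Rises in aly and sa included the centralspindlin subunit tum (4.01 and 3.05) and the Aurora B partner borr (3.35 and 2.47). The centriole gene ana2 fell by 2.35 in Med22RNAi and was 0.56 above wild type in aly and 0.51 in sa. Both differences in the mutants were under the median change of expressed probe sets, 0.77 in aly and 0.65 in sa. The centrosome protein gene spd-2 rose by 2.19 in aly and 1.40 in sa, and in Med22RNAi it was 1.29 lower than in wild type (log2 fold change -1.29, adjusted p = 4.12e-05 by limma).

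Of 14 kinetochore and condensin genes, 2 were called higher in Med22RNAi, 7 in aly and 8 in sa, and 1 was lower in each. The share of expressed probe sets called higher was 20.8%, 26.3% and 17.4%, and in Med22RNAi the list was near the 11.3% of all probe sets. The share called lower was 9.02%, 10.3% and 7.69% of all probe sets and 16.2%, 18.6% and 13.8% of expressed ones. The gene cid, which encodes the centromeric histone, gave 3.47, 3.90 and 3.51 in Med22RNAi, 8.61, 9.01 and 9.15 in aly and 8.30, 8.82 and 8.44 in sa, against 3.33, 4.24 and 4.76 in wild type. Its levels in Med22RNAi overlapped wild type, and the mutants lay far above both, by 4.81 ± 0.34 in aly and 4.41 ± 0.34 in sa. The difference of Med22RNAi was -5.29 from aly (adjusted p = 2.28e-06 by limma) and -4.89 from sa (adjusted p = 9.69e-06). The condensin gene SMC2 rose by 1.01 in the knockdown, 3.64 in aly testes and 3.16 in sa testes. The condensin subunit Cap-G ran against its list, at 5.22, 4.61 and 4.81 in Med22RNAi, 5.50, 5.33 and 5.65 in aly and 5.43, 5.15 and 5.14 in sa, against 9.71, 9.99 and 9.99 in wild type. All 9 arrest arrays of Cap-G lay below wild type, with log2 fold changes of -5.02, -4.40 and -4.66.

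**Figure D4:**
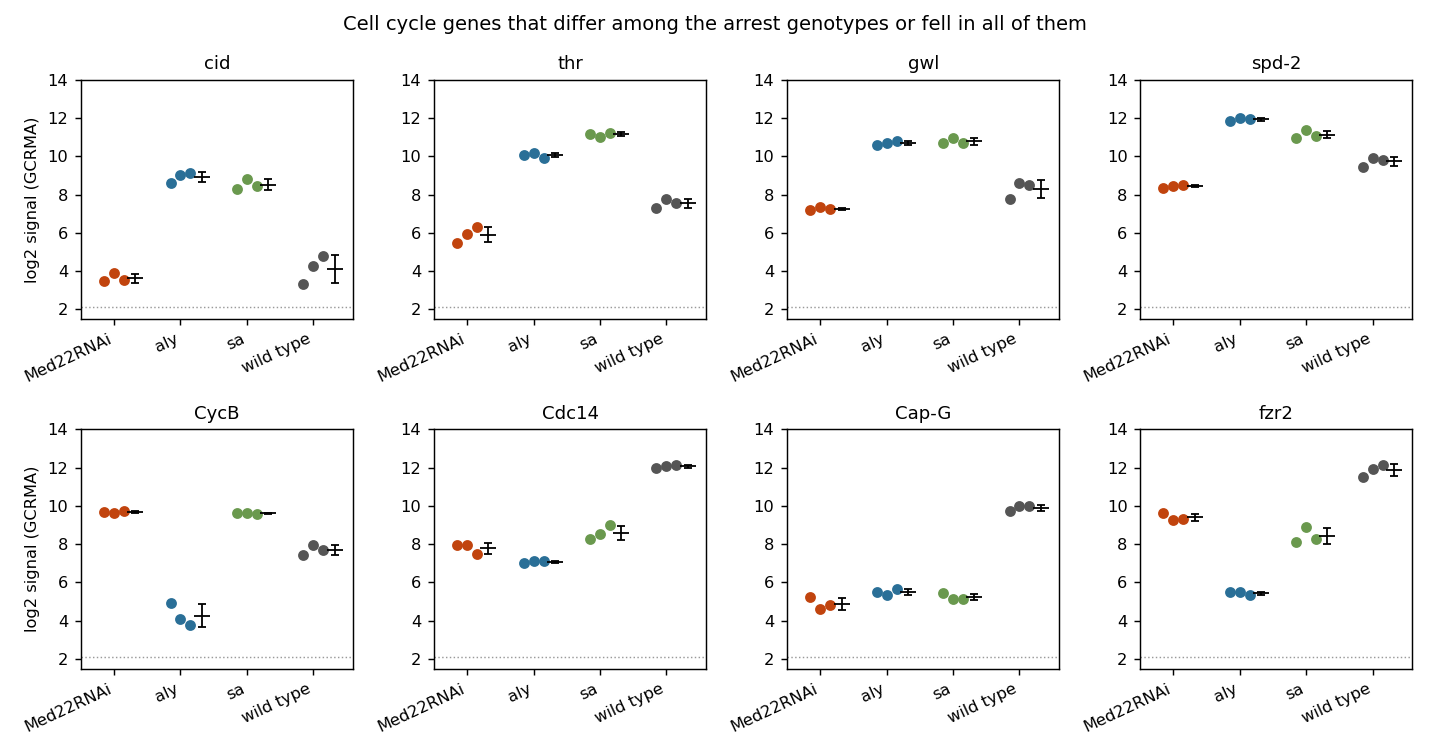
Levels on every array, as log2 signal, of 8 cell cycle genes, with genotypes along the horizontal axis, the mean and SD (n = 3) beside the points and a dotted line at the lowest value, 2.11. In the upper panels cid, thr, gwl and spd-2 are high in aly and sa and at or below the wild-type level in Med22RNAi, while in the lower panels CycB is low in aly alone and Cdc14, Cap-G and fzr2 are below wild type in all arrest genotypes.

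The genes cid, thr, gwl and spd-2 were singled out after their values were seen, for a level in Med22RNAi more than 4-fold below that in both mutants. CycK, Cdk8, rod, tum, feo, ana2, Spc25 and SMC2 also met this description. For gwl the direct log2 difference was -3.44 from aly and -3.52 from sa, and for spd-2 it was -3.48 and -2.69. CycB3 differed from the mutants in the same direction, by -2.43 and -2.15, and CycE in the opposite one, with fitted differences of 2.80 and 2.82. For CycE both mutants were under 3 on every array, so the fold is a lower bound, 4.48 with the mutants set at 3. Under centring on expressed probe sets the difference of Med22RNAi from aly was -4.97 for cid, -3.83 for thr, -3.11 for gwl and -3.16 for spd-2.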

How the data were processed

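Testis RNA of 12 samples (3 arrays for each of 4 genotypes, about 250 ng of RNA each, flies kept at 25 °C) was hybridised to Affymetrix arrays. The deposited values are log2 signals that the authors made with GCRMA, per the submitters' processing notes, which give no version. GCRMA corrects background, brings arrays to a common distribution and summarises the probes of a set, so a shift shared by most expressed genes can be partly removed. The sources used here do not say that all 12 arrays went through GCRMA as 1 set. No values were left out except 183 control probe sets of 18952. Array medians were 4.15 to 4.25 in Med22RNAi, 3.07 to 3.11 in aly, 3.91 to 4.02 in sa and 3.66 to 3.80 in wild type. The number of arrays limits the precision.

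Symbols came from the platform annotation, in which 13647 probe sets have a single symbol, for 11982 genes. The probe sets of CycE, CycD, Cdk2 and Cdk4 carry a suffix that marks probes shared by several transcripts. Means of the 4 genotypes were estimated from the 12 arrays together with lmFit and eBayes of limma 3.58.1 under R 4.3.3. The Benjamini-Hochberg adjustment covered the 18769 tested probe sets of a comparison. Calls required a change of at least 4-fold with an adjusted p under 0.05, and "rose" and "fell" mean an adjusted p under 0.05. For a genotype with every array under 3, folds are lower bounds that set it at 3. Levels of different probe sets were not compared. The scripts were tested on simulated data. Python 3.11.15, pandas 2.3.3 and matplotlib 3.10.9 were used for tables and figures.

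All members were named. Of each other list, up to 4 called genes per comparison with wild type could be named, by size of change, besides genes singled out after their values were seen. A gene with several probe sets was represented in list counts by the one with the highest mean. CycA, CycG, Wee1, Myt1, E2f1, BubR1, aurA and others had no probe set under their own symbol and were not analysed. The members and lists were chosen with earlier results of these data known. Alternatives were fits of only the compared genotypes, the replicate block, quantile normalisation, centring on the array median, a filter and a floor at a log2 of 4, a variance trend, leaving out each array, 1 probe set per gene, other limits on fold and p, and, chosen after seeing the data, centring on expressed probe sets.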

Additional observations from a re-analysis of the deposited data

How the results depend on the processing

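The counts of called drivers were small and near the limits. Against Med22RNAi's 2 higher and 0 lower, quantile normalisation, centring on the array median and centring on expressed probe sets each gave 1 higher and 1 lower (CycB3 passing 4-fold), the floor gave 1 higher (CycE falling under 4-fold), and a 2-fold limit or no fold limit gave 4 higher and 1 lower. In aly the 1 higher became 2 after quantile normalisation, 3 after median centring, 0 after centring on expressed probe sets, 4 at 2-fold and 5 with no fold limit. In sa the count of 0 became 3 at 2-fold and 4 with no fold limit. Between Med22RNAi and aly the count of 2 became 1 with the floor, and between Med22RNAi and sa it became 1 with the floor and 1 after centring on expressed probe sets. Between aly and sa the count of 0 became 1 at 2-fold and 1 with no fold limit. Leaving out 1 array gave 0 to 1 lower in Med22RNAi (1 without wild-type replicate 1), 0 to 2 higher in aly (0 without wild-type replicate 1, where Cdk2 was lost, and 2 without wild-type replicate 3, where CycD was added) and 0 to 1 higher in sa (1, CycD, without wild-type replicate 3).

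Of the 88 other genes, centring on expressed probe sets gave 10 higher and 11 lower in Med22RNAi (main values 20 and 4), 19 higher and 8 lower in aly (39 and 4) and 12 higher in sa (33). Genes lower in Med22RNAi were 9 after quantile normalisation and 8 after median centring. At a 2-fold limit the counts were 45 higher and 15 lower in Med22RNAi, 8 lower in aly and 56 higher in sa, and with no fold limit 57 and 20 in Med22RNAi, 63 and 13 in aly and 61 higher in sa. Between Med22RNAi and aly (8 higher, 19 lower) median centring gave 4 and 45, a 2-fold limit 15 and 41, and no fold limit 19 and 52. Between Med22RNAi and sa (2 higher, 16 lower) the higher count was 1 in a fit of only these genotypes, 1 after median centring and 1 at an adjusted p under 0.01, and the counts were 12 and 29 at 2-fold and 21 and 43 with no fold limit. Leaving out 1 array gave 1 to 3 higher there. Between aly and sa (5 higher, 3 lower) median centring gave 14 higher, a 2-fold limit 13 and 11, and no fold limit 31 and 17.

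Some log2 fold changes changed sign with the centring. On expressed probe sets, CycE was -0.95 in aly and -0.81 in sa, CycB3 -0.54 and -0.65, Cdk4 -0.78 and -0.60, and 1 dim fzy set -1.01 in aly and 0.29 between Med22RNAi and aly. On the array median, the other dim fzy set was 0.62 in aly. Between Med22RNAi and aly, CycD was -0.75, Cdk4 -0.96 and the bright fzy set -0.87, and between aly and sa CycD was 0.87 and Cdk4 0.88. Quantile normalisation gave -0.83 for Cdk4 between Med22RNAi and aly, and 0.81 for CycD and 0.82 for Cdk4 between aly and sa. CycE, Cdk4 and these dim sets lie near the floor, and centring moves the floor itself. Beyond this the cause was not tested.

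Same-numbered arrays of different genotypes had deviations from their group means that correlated between -0.339 and 0.337 (median -0.0331). Of the 12 arrays, 4 correlated best with their own number. No sign of pairing by number was seen, but so few arrays cannot exclude it. With the replicate block, 2 drivers were called higher in Med22RNAi as without it. The block took 1 driver, Cdk2 between Med22RNAi and aly, across the adjusted p limit, to 0.0446. The probe sets near the floor limit what can be said of Cdk4, cort and CycE outside the knockdown.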
